A study of Mus musculus with 6 samples.

Results

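The Schlafen genes are a family of interferon-inducible genes that lie side by side on mouse chromosome 11. The 7 members described here, Slfn1, Slfn2, Slfn3, Slfn4, Slfn5, Slfn8 and Slfn9, were taken by gene symbol from the 24062 genes of a count table. RNA sequencing had been run on auditory nerve, the bundle of spiral ganglion neuron axons and glia that connects the cochlea with the brainstem. Nerves came from 3 Vcan knockout and 3 wildtype mice, all young adults labelled C57BL/6, with the cochleae of each mouse pooled into its own library. Vcan encodes versican, a chondroitin sulfate proteoglycan of the extracellular matrix. The design text names C57BL/6J, and neither source says how Vcan was altered or whether its loss was limited to certain cells. The family was chosen by the knockout against wildtype fold changes of these same libraries, because Slfn8 was among the genes past the threshold of that contrast. The members' differences between knockout and wildtype nerve are therefore a description, and no test of them is used as support.

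Libraries held between 74530860 and 92513887 gene counts. Values are given as CPM, counts scaled to a common library size with the TMM method of edgeR, with errors as SDs of the 3 libraries per genotype. Vcan was at 5.44, 2.70 and 2.88 CPM in knockout nerve, against 8.36, 9.61 and 7.32 CPM in wildtype nerve. Every knockout library lay below every wildtype library. The log2 fold change was −1.20 (SE 0.32), which did not pass in edgeR (quasi-likelihood test, adjusted p = 0.558) and passed in DESeq2 (adjusted p = 0.0334). Markers of the labelled tissue were present in every library: 10 Schwann cell genes summed to between 9690 and 13945 CPM in knockout and between 9646 and 18209 CPM in wildtype nerve. The sums of 12 spiral ganglion neuron genes were 12222 to 13740 CPM in knockout and 7221 to 12867 CPM in wildtype nerve. In bulk tissue, fewer cells of a type and less RNA per cell cannot be told apart. Nnt, a mitochondrial transhydrogenase gene in which C57BL/6J mice are known to carry a deletion, was at 85.5, 78.1 and 73.6 CPM in knockout and 32.5, 32.4 and 33.1 CPM in wildtype nerve. The labels do not give the substrain of the knockout line, so a difference in strain background and the loss of Vcan cannot be told apart in any comparison of the genotypes, those of the Schlafen genes included.

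Schlafen proteins share an N-terminal Schlafen core domain, and in several of them this core can bind or cleave transfer RNA. Mouse Schlafens are sorted by length: a short class with Slfn1 and Slfn2, an intermediate class with Slfn3 and Slfn4, and a long class with Slfn5, Slfn8 and Slfn9, which adds a helicase-like part. They are best known from lymphoid and myeloid cells, where type I interferon induces many of them and where some restrain growth or viral replication. The longest coding sequences in GENCODE vM21 followed that order, with 1011 bases for Slfn1, 1134 for Slfn2, 1806 for Slfn4, 1920 for Slfn3, 2652 for Slfn5, and 2730 for each of Slfn8 and Slfn9. Aligned end to end, the coding sequences of Slfn8 and Slfn9 were identical at 92.7% of 2730 positions, and those of Slfn3 and Slfn4 at 92.7% of 1785 ungapped positions. Slfn5 was identical to each of Slfn8 and Slfn9 at 64.4% of 2568 ungapped positions.

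The stretches just upstream of 6 members are printed because they show which members share promoter letters, set beside values that do or do not move together. Each runs 5′ to 3′ along the gene's own strand and covers the 110 bases before a RefSeq transcript start (GRCm38.p6). Capitals mark matches to TTTCNNTTTC, the core of the interferon-stimulated response element, and to ACTTCCTG, which holds the TTCC core that ETS-family factors bind. Both strands were searched over the 250 bases before the start, and no match of one motif overlapped a match of the other. The second motif was picked after the windows had been read.
Slfn8: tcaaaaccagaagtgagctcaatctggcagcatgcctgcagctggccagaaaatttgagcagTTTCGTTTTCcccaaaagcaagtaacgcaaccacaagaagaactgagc
Slfn9: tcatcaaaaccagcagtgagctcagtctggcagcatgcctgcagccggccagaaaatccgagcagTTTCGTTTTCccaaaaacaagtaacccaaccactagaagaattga
Slfn4: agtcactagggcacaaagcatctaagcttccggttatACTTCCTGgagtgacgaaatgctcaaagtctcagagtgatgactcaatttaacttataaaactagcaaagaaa
Slfn3: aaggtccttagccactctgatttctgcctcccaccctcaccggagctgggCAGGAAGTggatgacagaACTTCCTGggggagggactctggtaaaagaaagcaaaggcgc
Slfn1: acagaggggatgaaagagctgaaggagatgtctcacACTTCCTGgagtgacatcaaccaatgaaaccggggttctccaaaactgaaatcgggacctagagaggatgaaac
Slfn2: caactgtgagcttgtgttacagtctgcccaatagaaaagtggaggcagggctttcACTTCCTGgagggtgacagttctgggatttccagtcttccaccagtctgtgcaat

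In GRCm38.p6 the windows lie on the minus strand at chr11:83020811-83020920 for Slfn8 and chr11:82991831-82991940 for Slfn9. Those of Slfn4, at chr11:83175076-83175185, Slfn3, at chr11:83191220-83191329, Slfn1, at chr11:83116710-83116819, and Slfn2, at chr11:83065002-83065111, lie on the plus strand. The Slfn8 and Slfn9 windows were identical at 98 of 107 ungapped positions (91.6%), while the other 20 pairs of members, Slfn5 included, reached at most 69.3% with gaps allowed. Both held the same 10 letters, TTTCGTTTTC, beginning 48 bases before the start in Slfn8 and 45 bases before it in Slfn9. Slfn5 had a match on the opposite strand, 155 bases before its start, and its window is not shown because all of it lies inside the annotated gene. The Slfn4 window is shown, although its last bases, from 83175172 on, also lie inside the annotated gene. Slfn8 has a second RefSeq start downstream of the one used here, also not shown. Of 32851 promoter windows of that kind, 2.98% held the interferon-type motif and 2.69% the ETS-type motif. The ETS-type motif was found in Slfn1, Slfn2, Slfn3 and Slfn4, and not in Slfn5, Slfn8 or Slfn9. Because that motif was picked from these same windows, its share over all windows cannot show whether it is enriched in the members. A match is a run of letters and does not show that a factor binds there.

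Per length, Slfn5 and Slfn2 were the most abundant members in both genotypes. Levels per length are CPM per kilobase of exon (RPKM), with exons joined over all GENCODE vM21 transcripts. In knockout nerve the mean RPKM ran in the order Slfn5 (2.03 ± 0.529), Slfn2 (1.36 ± 0.500), Slfn4 (0.434 ± 0.578), Slfn1 (0.191 ± 0.202), Slfn3 (0.121 ± 0.123), Slfn9 (0.0873 ± 0.0929) and Slfn8 (0.0630 ± 0.0127). The ranges of all neighbours in that order overlapped. The order in wildtype nerve was Slfn5 (2.47 ± 0.357), Slfn2 (1.72 ± 0.633), Slfn8 (0.571 ± 0.128), Slfn1 (0.133 ± 0.0655), Slfn4 (0.131 ± 0.0299), Slfn3 (0.126 ± 0.0413) and Slfn9 (0.110 ± 0.0394), all in RPKM (SD, n = 3). There Slfn8 stood apart from its neighbours on either side, while Slfn5 overlapped Slfn2 and the 4 lowest members overlapped each other. By mean RPKM, Slfn8 was thus last in knockout nerve, against rank 3 in wildtype nerve. It was the lowest member in no single knockout library. Slfn1 was lower in knockout replicate 1 (0.0354 against 0.0515 RPKM for Slfn8). Slfn9 was lower in knockout replicate 2 (0.0381 against 0.0609 RPKM) and in knockout replicate 3 (0.0292 against 0.0766 RPKM). With the longest transcript as the length, Slfn3 moved ahead of Slfn1 and Slfn4 in wildtype nerve and no other place changed.

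Of the members' shares in the family's summed RPKM, that of Slfn8 did not overlap between the genotypes and those of the other 6 did. Slfn8 made up 1.21%, 1.08% and 2.60% in the knockout libraries, against 12.8%, 13.2% and 7.29% in the wildtype libraries. Slfn5 and Slfn2 together made up 70.4% to 86.0% in knockout and 78.2% to 81.8% in wildtype nerve. In knockout replicate 2 alone Slfn4 took a large share, 19.4%, against 1.25% and 5.07% in knockout replicates 1 and 3 and at most 2.76% in the wildtype libraries.

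**Figure D1:**
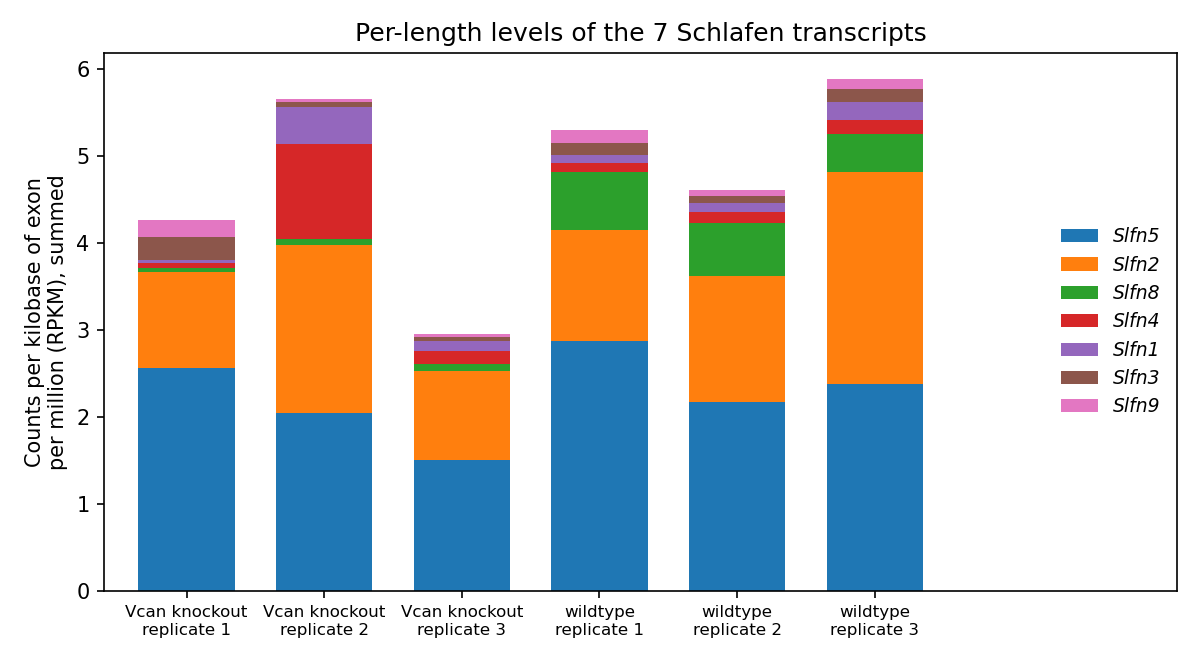
Stacked bars of the per-length level (RPKM, y axis) of the 7 Schlafen transcripts in each of the 3 Vcan knockout and 3 wildtype libraries (x axis). Slfn5 and Slfn2 fill most of each bar, the Slfn8 segment is 1.08% to 2.60% of the bar in knockout and 7.29% to 13.2% in wildtype nerve, and Slfn4 is widest in knockout replicate 2.

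Slfn8, a long-class member whose forced expression in mouse T cells is known to disturb their growth, was the member that separated the genotypes. It lies on chromosome 11 between 83002125 and 83020810 (GRCm38.p6). It had 16, 23 and 27 counts in the knockout libraries, or 0.211, 0.249 and 0.313 CPM. The wildtype libraries held 231, 223 and 150 counts, or 2.77, 2.48 and 1.75 CPM. Every knockout library lay below every wildtype library, and the spread within each group was small, with the highest library at 1.49 times the lowest in knockout and 1.58 times in wildtype nerve. The mean was 0.258 ± 0.0518 CPM in knockout and 2.34 ± 0.524 CPM in wildtype nerve (SD, n = 3), 9.06-fold lower in knockout nerve, with a fitted log2 fold change of −3.17 (SE 0.35).

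All 7 members passed the filter on low counts, and 1 of them, Slfn8, was past the threshold of an adjusted p under 0.05 in edgeR, where 0.138% of the 16722 genes tested were in either direction and 0.0718% were lower in knockout nerve. Before adjustment 5.2% of all genes were under 0.05. Slfn8 was also the only member whose libraries did not overlap between the groups, which was true of 10.3% of all genes tested, with knockout below wildtype in 4.93%. These counts use the contrast that led to the choice of the family, and nothing is read from them. The call did not hold without any 1 library: leaving out each of the 6 in turn, knockout and wildtype alike, gave log2 fold changes of −3.35 to −3.03 and edgeR adjusted p-values of 0.0678 to 0.281. In DESeq2 Slfn8 was again the member that passed, where 1.44% of the same genes did. In the authors' deposited table its log2 fold change was −2.14, from DESeq2 with settings that the sources used here do not give.

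**Figure D2:**
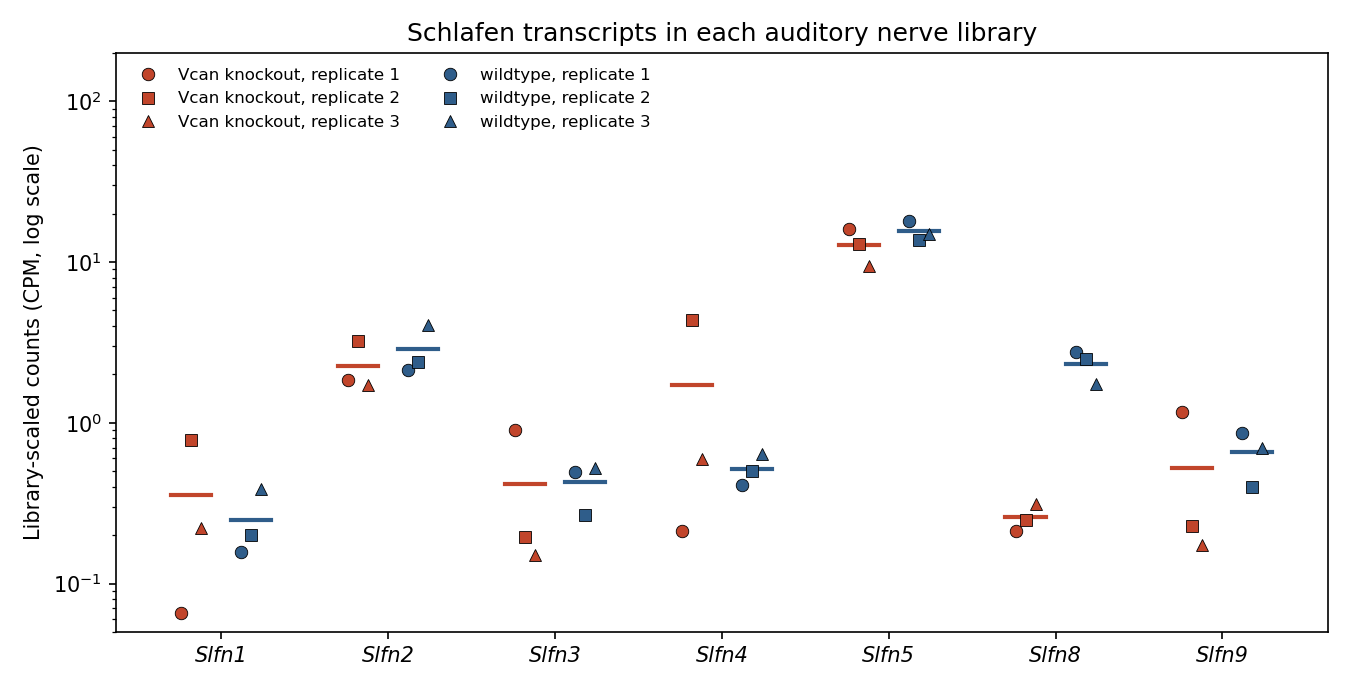
Library-scaled counts (CPM, log axis) of the 7 Schlafen transcripts (x axis) in each library, with a symbol for each replicate, Vcan knockout left of wildtype, and bars at the group means. Slfn8 is at 0.211 to 0.313 CPM in knockout and 1.75 to 2.77 CPM in wildtype nerve, and the groups overlap for the other 6 members.

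Slfn9, the long-class gene most like Slfn8 in sequence, did not separate the genotypes. It was at 1.16, 0.227 and 0.174 CPM in knockout nerve, against 0.864, 0.401 and 0.702 CPM in wildtype nerve. Knockout replicate 1 was the highest of the 6 libraries and the other two knockout libraries were the lowest. The log2 fold change was −0.34 (SE 0.78), and −1.70 without knockout replicate 1. Within a library, the ratio of Slfn8 to Slfn9 in RPKM was 0.265, 1.60 and 2.62 in the knockout libraries, against 4.68, 9.03 and 3.65 in the wildtype libraries. All 3 knockout ratios lay below all 3 wildtype ratios. Slfn8, which led to the choice of the family, is the numerator, so this separation is no result apart from that of Slfn8. The denominator rested on 15 to 88 Slfn9 counts per library. Of the 50-base stretches in the longest Slfn8 transcript, 15.4% also occur in another gene, 10.7% in the pseudogene Slfn10-ps and 9.82% in Slfn9. For Slfn9 the share was 11.9%. The sources used here do not state how reads matching several genes were handled, so the values of Slfn8 and Slfn9 carry that uncertainty.

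Slfn5, whose human counterpart restrains transcription of viral DNA, was the member with the most counts, between 816 and 1510 in every library. It was at 16.2, 12.9 and 9.47 CPM in knockout nerve, against 18.1, 13.7 and 15.0 CPM in wildtype nerve. Wildtype replicate 1 was the highest library and knockout replicate 3 the lowest, and the groups overlapped. The mean was 12.9 ± 3.35 CPM in knockout and 15.6 ± 2.25 CPM in wildtype nerve (SD, n = 3), with a log2 fold change of −0.28 (SE 0.24).

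Of the intermediate class, Slfn4, a gene of activated myeloid cells in mice, varied most. It was at 0.211, 4.35 and 0.592 CPM in knockout nerve, against 0.408, 0.501 and 0.643 CPM in wildtype nerve. A single library, knockout replicate 2, stood far above the rest with 402 counts, where the other 5 libraries held 16 to 55. The highest knockout value was 20.6 times the lowest, and in wildtype nerve the highest was 1.58 times the lowest. The log2 fold change of 1.73 (SE 1.03) rested on that library and was −0.37 without it.

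Slfn3, a gene tied to the differentiation of intestinal epithelium in rodents, was at 0.896, 0.195 and 0.151 CPM in knockout nerve. Its wildtype values, 0.492, 0.267 and 0.526 CPM, lay between those of knockout replicate 1 and those of the other two knockout libraries. The log2 fold change was −0.06 (SE 0.75), and −1.30 without knockout replicate 1. Slfn3 and Slfn4 share sequence, since 7.97% of the 50-base stretches of Slfn3 occur in Slfn4. Among the knockout libraries Slfn3 was highest in replicate 1, where Slfn4 was lowest.

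Among the short class, Slfn2, which keeps mouse T cells and monocytes quiescent and protects transfer RNA from cleavage, was at 1.85, 3.22 and 1.72 CPM in knockout nerve, against 2.12, 2.40 and 4.07 CPM in wildtype nerve. The highest value belonged to wildtype replicate 3, and the groups overlapped. The log2 fold change was −0.34 (SE 0.39). Slfn1, which slows thymocyte growth when expressed there, was at 0.0659, 0.780 and 0.220 CPM in knockout nerve, against 0.156, 0.200 and 0.386 CPM in wildtype nerve. It was scarce, with 5, 72 and 19 counts in the knockout libraries and 13, 18 and 33 in the wildtype libraries, and as for Slfn4 the highest library was knockout replicate 2. The log2 fold change of Slfn1 was 0.53 (SE 0.87), and −0.78 without that library.

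Over the 7 members the fold changes were negative for 5 and positive for 2, the median being −0.28 (log2), where 51.1% of all genes tested were negative and the median was −0.01. The members did not rise or fall as a block within the knockout group. Knockout replicate 1 was the highest of the 3 knockout libraries for Slfn5, Slfn9 and Slfn3, knockout replicate 2 for Slfn2, Slfn1 and Slfn4, and knockout replicate 3 for Slfn8.

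The genes whose profile was nearest to each member, by root mean square difference in centred log2(CPM + 0.1) over the 6 libraries, differed between members. They were sought among 12948 genes with a mean of at least 2 CPM, outside the family. The nearest of so many genes lie below the median by selection, so the medians given cannot show that profiles are related. For Slfn8 the nearest were Rpl29, a ribosomal protein gene (difference 0.33), Eps8l1 (0.52) and Cd59a, a complement inhibitor (0.60), against a median of 1.42 over all genes. Rpl29 was at 10.95, 16.6 and 15.8 CPM in knockout nerve, against 86.1, 104 and 114 CPM in wildtype nerve. These genes were, like Slfn8, lower in knockout nerve, with log2 fold changes of −2.81 for Rpl29, −2.09 for Eps8l1 and −1.68 for Cd59a. For Slfn4 the nearest was Mpo, the myeloperoxidase of neutrophil precursors (0.60, median 1.22). Slfn5 was nearest to Gbp9, a guanylate-binding protein (0.09), and Csf1r, the macrophage growth factor receptor (0.10), with a median of 0.39 over all genes. Slfn3 was nearest to Col6a3 and Herc1 (0.09 and 0.11, median 0.75), and Slfn9 to Bicc1 and Ubash3b (0.11 and 0.13, median 0.86). Slfn2 was nearest to Ptpn18 and Ptgds (0.12 and 0.13, median 0.48), and Slfn1 to Smco4 and Cetn4 (0.39 and 0.40, median 0.79).

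Within each genotype, neutrophil transcripts ordered the libraries as Slfn4 and Slfn1 did. On the scale of log2(CPM + 0.1) minus the wildtype mean, the neutrophil genes had a median of −1.40, 1.71 and 1.20 in the knockout libraries and −0.47, −0.18 and 0.70 in the wildtype libraries. Slfn4 stood at −0.97, 2.87 and 0.18 in the knockout libraries, against −0.26, −0.02 and 0.29 in the wildtype libraries. Of 16 neutrophil genes, 13 had knockout replicate 1 as the lowest knockout library and 10 had knockout replicate 2 as the highest. Their summed level was 136, 193 and 91.7 CPM in knockout nerve, against 24.9, 32.1 and 75.0 CPM in wildtype nerve. Without Ltf, which alone was at 121 CPM in knockout replicate 1, the sums were 14.8, 129 and 82.4 CPM in knockout and 22.5, 29.3 and 62.5 CPM in wildtype nerve. The markers differed in level. Elane, the neutrophil elastase gene, was low, at 0.0264, 2.22 and 1.32 CPM in knockout nerve and 0.0960, 0.223 and 0.491 CPM in wildtype nerve. S100a9 was at 1.15, 29.0 and 20.2 CPM in knockout nerve and 6.28, 7.70 and 13.8 CPM in wildtype nerve. S100a8 was at 0.619, 18.4 and 14.7 CPM in knockout nerve and 4.06, 4.86 and 8.26 CPM in wildtype nerve. The part of neutrophil RNA in the Slfn4 and Slfn1 values was not tested.

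Slfn3 and Slfn9 were both highest among the knockout libraries in replicate 1. On the same scale, Slfn9 stood at 0.79, −1.15 and −1.41 in the knockout libraries and at 0.40, −0.54 and 0.14 in the wildtype libraries. Slfn3 stood at 0.95, −0.80 and −1.04 in the knockout and at 0.20, −0.49 and 0.28 in the wildtype libraries. Their longest transcripts have 5769 bases for Slfn9 and 2834 bases for Slfn3. The 8541 genes with a longest transcript of 2000 to 6000 bases, the class that holds both, had medians of −0.01, 0.01 and 0.02 in the knockout and 0.01, 0.02 and −0.03 in the wildtype libraries. This class holds most of the 12966 genes sorted by length, and the scaling holds the bulk of genes level across libraries. Its flat median therefore cannot show whether Slfn3 and Slfn9 followed transcript length. Slfn9 also lies close to the 6000-base limit of the class. The 2007 genes with longer transcripts, a class that holds neither, had medians of 0.26, −0.25 and −0.25 in the knockout and 0.15, −0.19 and 0.05 in the wildtype libraries. For 2418 genes with transcripts under 2000 bases the medians were −0.20, 0.19 and 0.17 in the knockout and −0.13, 0.13 and −0.01 in the wildtype libraries. The length classes were chosen after the nearest genes had been seen, and the part of RNA quality or library making in the Slfn3 and Slfn9 values was not tested. Slfn8, with a longest transcript of 4011 bases, stood at −2.95, −2.78 and −2.54 in the knockout libraries, against 0.26, 0.11 and −0.37 in the wildtype libraries.

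**Figure D3:**
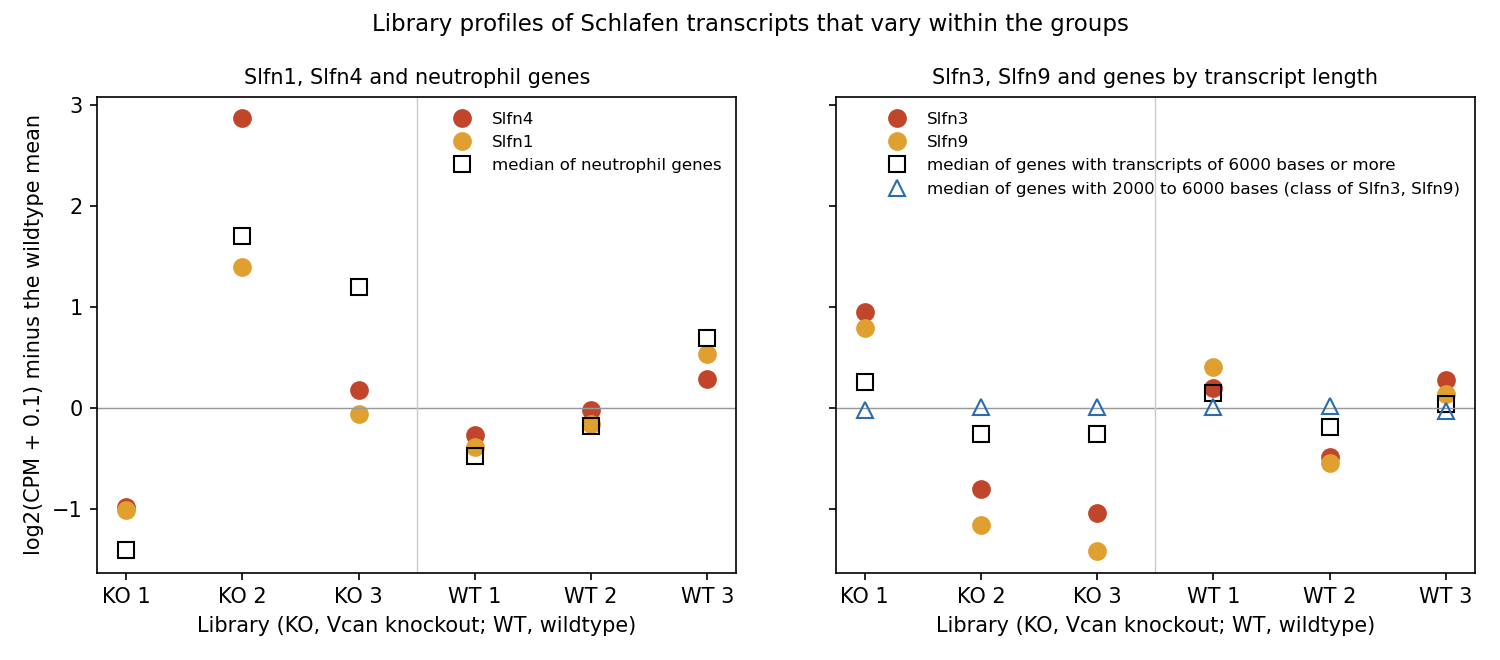
Level of Slfn4 and Slfn1 with the median of the neutrophil genes (left) and of Slfn3 and Slfn9 with the medians of the 8541 genes in their own class of transcript length and of the 2007 genes with longer transcripts (right), as log2(CPM + 0.1) minus the wildtype mean, for each of the 3 Vcan knockout (KO) and 3 wildtype (WT) libraries. Slfn4 reaches 2.87 in knockout replicate 2 and −0.97 in knockout replicate 1, and Slfn3 and Slfn9 are highest in knockout replicate 1, at 0.95 and 0.79. The median of their own length class stays between −0.03 and 0.02. That class holds most genes, which the scaling holds level across libraries.

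Other genes with a Schlafen symbol were scarce. Slfn14, a long-class gene tied in humans to platelet formation, had 23, 13 and 1 counts in the knockout libraries and 23, 23 and 25 in the wildtype libraries, with a log2 fold change of −0.86 (SE 0.87) that did not pass in edgeR. Slfn10-ps, the pseudogene next to Slfn8, had 22, 0 and 1 counts in the knockout libraries and 3, 3 and 12 in the wildtype libraries. The low-count filter removed it, along with Slfnl1, which lies on chromosome 4 and had 1 to 16 counts per library, and Slfn5os. Slfn5os, named as the opposite strand of Slfn5, had 3 counts in all, in knockout replicate 3. Whether counting used strand is not stated, so reads of Slfn5 and Slfn5os cannot be told apart where the genes overlap.

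The neighbourhood of the cluster was also examined, since Slfn8 lies amid genes that did not separate the genotypes. The members span chromosome 11 from 82951349 to 83215154 (GRCm38.p6), 263.8 kb, in the order Slfn5, Slfn9, Slfn8, Slfn2, Slfn1, Slfn4 and Slfn3. Of 46 other genes reaching within 1 Mb of the ends, Schlafens left out, 38 were tested. In edgeR 1 passed, higher in knockout nerve, beside 0.0658% of all genes tested. The median log2 fold change of the 38 was −0.02, and 33 of them lay within 1 of zero. The nearest tested neighbours were Unc45b, a myosin chaperone gene 7.94 kb before Slfn5, with 0.780 ± 0.231 CPM in knockout and 1.44 ± 0.742 CPM in wildtype nerve, and the long noncoding AI662270, 8.42 kb after Slfn3, with 1.17 ± 0.294 CPM in knockout and 0.995 ± 0.0676 CPM in wildtype nerve (SD, n = 3).

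The gene that passed was the long noncoding AA465934, between 83291699 and 83294637, 76.5 kb beyond Slfn3 and 270.9 kb from the 5′ end of Slfn8. It was at 10.3, 11.4 and 13.2 CPM in knockout nerve, against 1.07, 1.135 and 1.46 CPM in wildtype nerve. All 3 knockout libraries were above all 3 wildtype libraries, 9.51-fold on the means, with a log2 fold change of 3.25 (SE 0.24, edgeR adjusted p = 0.00806). AA465934 was thus higher in knockout nerve and Slfn8 lower, while the members between them, Slfn2, Slfn1, Slfn4 and Slfn3, overlapped between the genotypes. The call was lost without knockout replicates 2 or 3 and without wildtype replicates 1 or 2. AI450353, which overlaps AA465934, was at 3.25 ± 0.793 CPM in knockout and 2.24 ± 0.572 CPM in wildtype nerve (SD, n = 3), and how reads in the overlap were assigned is not stated. On the far side, Ccl8, a monocyte-attracting chemokine gene 834.6 kb before Slfn5, passed in DESeq2 and not in edgeR. It was at 0.567, 0.260 and 0.209 CPM in knockout nerve, against 0, 0.0445 and 0.0117 CPM in wildtype nerve.

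**Figure D4:**
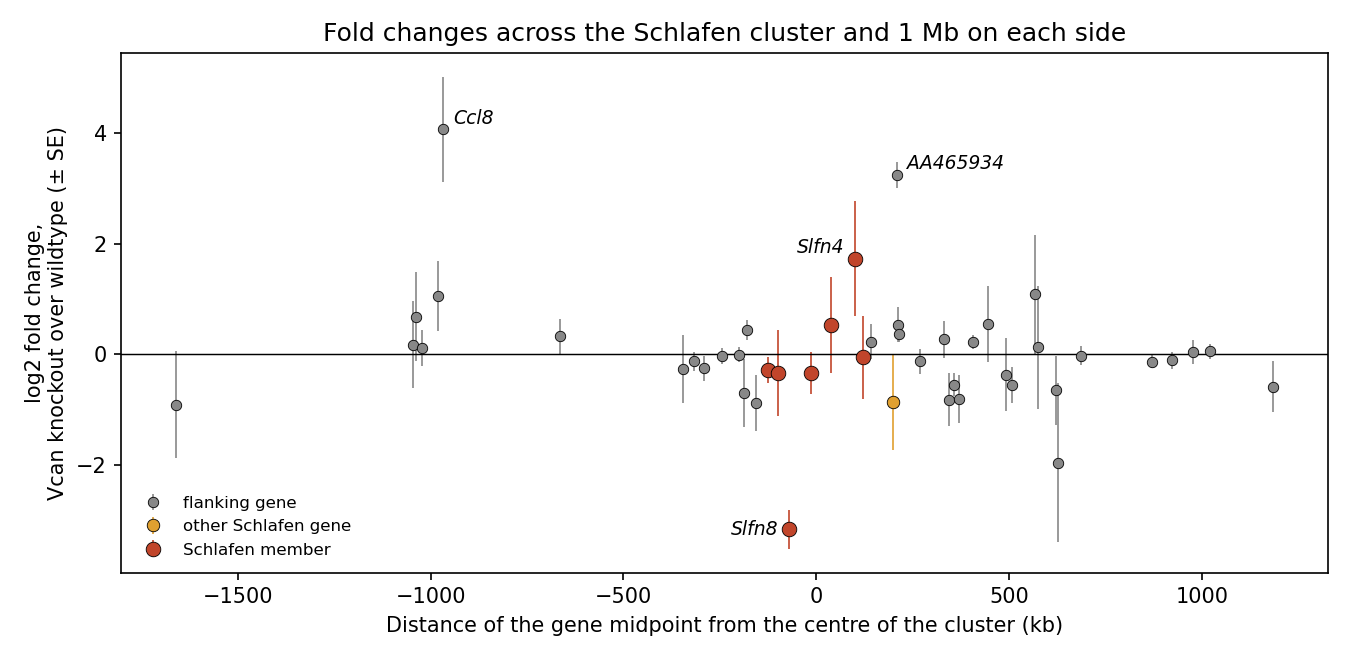
Log2 fold change of Vcan knockout over wildtype with its SE (y axis) for the 7 Schlafen members, Slfn14 and 38 flanking genes against the distance of each gene's midpoint from the centre of the cluster (kb, x axis). Slfn8 at −3.17 and AA465934 at 3.25 stand away from zero in opposite directions, Ccl8 has a fitted 4.07 from 0 to 4 wildtype counts per library, and 33 of the flanking genes are within 1 of zero.

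Genes induced by type I interferon, the signal that induces many Schlafens, had mostly negative fold changes, and none passed in edgeR. Of 40 such genes 36 had a negative log2 fold change, with a median of −0.37, beside 51.1% negative and a median of −0.01 over all genes tested. Before adjustment 10 of the 40 were under 0.05 in edgeR, beside 5.2% of all genes tested. DESeq2 called 4 of the 40, beside 1.44%, with Oasl2, Ifit3 and Oas1a lower and Xaf1 higher. Oasl2, of the oligoadenylate synthetase family, was at 11.5, 10.02 and 7.71 CPM in knockout nerve, against 21.0, 20.6 and 27.1 CPM in wildtype nerve. Their summed level was 608 to 718 CPM in knockout and 684 to 984 CPM in wildtype nerve, ranges that overlap. The log2 fold changes of the list ran from −1.34, for Ifi27l2a, to 1.49, for Xaf1. The part of interferon signalling in the Slfn8 value was not tested.

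Receptor and signalling genes of the interferon pathway, upstream of the Schlafens, split evenly: 9 of 18 had positive and 9 negative fold changes, with a median of 0.02. Jak1, the kinase shared by interferon receptors, was at 245 ± 2.46 CPM in knockout and 223 ± 21.4 CPM in wildtype nerve (SD, n = 3). Of 7 tested genes for cleavage or protection of transfer RNA, 2 had positive and 5 negative fold changes, with a median of −0.15. Their summed level was 240 to 244 CPM in knockout and 227 to 266 CPM in wildtype nerve. Rnh1, the inhibitor of the RNase angiogenin, was at 107 ± 15.1 CPM in knockout and 106 ± 22.7 CPM in wildtype nerve (SD, n = 3). Neither list had a gene past the threshold in edgeR or DESeq2, and 1 and 0 genes were under 0.05 before adjustment.

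Markers of the blood and vessel cells that could carry Schlafen transcripts were summed by list. The sums overlapped between the genotypes, except for endothelium and neutrophils, and the neutrophil sums overlapped without Ltf. The 18 T and NK cell genes summed to 5.38 to 7.78 CPM in knockout and 4.53 to 7.10 CPM in wildtype nerve, and the 23 macrophage and microglia genes to 440 to 532 CPM in knockout and 508 to 643 CPM in wildtype nerve. The sums were 51.9 to 62.1 CPM in knockout and 38.9 to 67.5 CPM in wildtype nerve for 11 monocyte and dendritic cell genes, and 9.17 to 13.1 CPM in knockout and 7.30 to 11.1 CPM in wildtype nerve for 12 B cell genes. For 15 erythroid and platelet genes, 5 of them at 0 in every library, they were 37.9 to 64.3 CPM in knockout and 29.3 to 53.5 CPM in wildtype nerve. Within that list the platelet genes Pf4, Ppbp, Gp9 and Itga2b were each higher in every knockout than in every wildtype library. Alas2, an erythroid gene, was lower in every knockout library. Of all genes tested, 10.3% did not overlap between the genotypes. The 12 endothelial genes summed to 525 to 629 CPM in knockout and 452 to 497 CPM in wildtype nerve. Their fold changes were positive for 7 and negative for 5. The largest were those of Cldn5 (log2 0.94) and of Emcn (log2 0.68), which was at 131, 146 and 214 CPM in knockout and 79.0, 114 and 114 CPM in wildtype nerve. Median log2 fold changes were −0.07 for T and NK cell, −0.25 for macrophage and microglia, 0.18 for monocyte and dendritic cell, 0.97 for neutrophil, 0.28 for B cell, 0.39 for erythroid and platelet and 0.02 for endothelial genes, and −0.10 and 0.13 for Schwann cell and neuron genes. None of these 9 lists had a gene past the threshold in edgeR. Before adjustment 4 of 9 tested erythroid and platelet genes were under 0.05, with Ppbp, Gp9 and Itga2b higher and Alas2 lower in knockout nerve. Each other list had 0 to 3 such genes, beside 5.2% of all genes tested. DESeq2 called 1 gene each in the monocyte (Ccr2) and platelet (Ppbp) lists, both higher in knockout nerve, beside 1.44% of all genes tested. Their part in the Schlafen values was not tested.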

How the data were processed

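A single deposited table was used. Its 6 sample columns are raw counts per gene made by the authors. Per the submitters' processing notes, mm10, HTSeq and DESeq2 were used, with no versions; the aligner, the strand setting and the handling of reads matching several genes are not stated there. Per the file headers the authors also deposited a mean normalised signal, a log2 fold change, its standard error and a test statistic (scores), and p-values; only their log2 fold change is quoted. The 5 symbols on 2 rows with identical counts were joined. No pair of libraries of a group agreed within sampling noise (lowest chi-square per degree of freedom 39.9).

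All 24062 symbols entered edgeR 4.0.16 in R 4.3.3: filterByExpr (16722 genes), TMM scaling, robust quasi-likelihood F test, knockout against wildtype, 2-sided, Benjamini-Hochberg adjustment over all genes, threshold 0.05, no covariate. The SE is the fold change divided by the square root of F. DESeq2 1.42.0 was an alternative, as were other scaling, other filters, a replicate block and leaving out each library. The fit was tested on simulated data.

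Coordinates and upstream sequences come from RefSeq, GRCm38.p6 (the assembly behind mm10), by gene identifier, and all 7 members matched. Exon lengths, coding sequences and shared 50-base stretches come from GENCODE vM21. The members and lists were chosen with earlier results of these data known. Named genes are the members, other Schlafen symbols, Vcan, list genes past the threshold or else of highest mean, flanking genes past it or nearest, and for each member its nearest profiles. Nnt, Ccl8, AI450353, Elane, Ltf, Xaf1, Oasl2, Ifit3, Oas1a, Ifi27l2a, Ccr2 and Ppbp were named after their values were seen. So were Pf4, Gp9, Itga2b, Alas2, Cldn5, Emcn, S100a8 and S100a9. The labels do not say whether litters or days differed. In the column headers the library numbers of wildtype and of knockout nerve form separate blocks, and what these numbers stand for is not stated. Any difference in handling between the blocks could not be told apart from genotype. The p-values cover only the spread between these mice and their libraries. Precision is limited by 3 mice per group and, below about 1 CPM, by few counts.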

Additional observations from a re-analysis of the deposited data

How the results depend on the processing

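Slfn8 kept its direction in all 11 alternatives, with log2 fold changes of −3.35 to −3.03 when each library was left out in turn. It stayed past the threshold with the other scaling, without a low-count filter, with at least 1 CPM in 3 libraries and in DESeq2, and lost it in every fit without 1 library. With the replicate block its log2 fold change was −3.16 and the call was lost, which left 0 members past the threshold, as did each fit without 1 library. Same-numbered libraries correlated at 0.43, 0.22 and −0.15 in their deviations from the group means, and differently numbered ones at −0.49 to 0.37. The deviations of 3 libraries constrain each other, so these values cannot decide whether the numbers pair the samples. The labels state no pairing, and the column headers number the knockout mice differently from the titles.

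Over the 16722 genes tested in edgeR 23 passed, against 3 with the replicate block and 3 to 14 without 1 library. DESeq2 called 252 among 20184 genes, and 241 among the 16722 genes tested in edgeR. Of the flanking genes 1 passed, against 2 in DESeq2, 0 with the replicate block and 0 to 1 without 1 library. The interferon list had 0 genes past the threshold in edgeR, 10 before adjustment, and 4 in DESeq2. With the replicate block the log2 fold changes were 0.030 for Slfn1, −0.34 for Slfn2, −0.42 for Slfn3, 0.64 for Slfn4, −0.30 for Slfn5 and −0.76 for Slfn9. Without 1 library they ran from −0.78 to 1.01 for Slfn1, −0.69 to −0.0099 for Slfn2, −1.30 to 0.34 for Slfn3, −0.37 to 2.25 for Slfn4, −0.48 to −0.11 for Slfn5 and −1.70 to 0.074 for Slfn9, with Slfn2 nearest zero without wildtype replicate 3. Vcan was at −1.20 in DESeq2, past the threshold there alone. The cause of these shifts was not tested. Slfn1, Slfn3, Slfn4 and Slfn9 gave no value under the 1 CPM filter, which removes them.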
